A study of Mus musculus with 4 samples.

Results

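Histone chaperones and the Tousled-like kinases that act on them were followed in germinal vesicle stage mouse oocytes, with and without γ-irradiation. The 10 genes are the kinases Tlk1 and Tlk2 and the chaperones Asf1a, Asf1b, Hira, Npm2, Nasp, Nap1l1, Nap1l4 and Chaf1a. They were taken by their NCBI gene identifiers from a table of 17374 genes, in which they account for 50 of 45505 listed transcripts. The oocytes came from non-primed female mice, on post-natal day 16. The study's methods give the mice as C57/Bl6 by DBA2J F1 hybrids. In both groups the oocytes were freed of cumulus cells and held in minimal essential medium with bovine serum albumin and milrinone, which keeps them from resuming meiosis. The 2 control libraries were made from non-irradiated oocytes, and the 2 irradiated libraries from oocytes that received 5 Gy from a cesium source and were collected 24 h later. The submitters describe the control oocytes as sequenced directly, so the time in culture and the irradiation cannot be told apart. Each library is a pool of oocytes from which messenger RNA was captured with oligo(dT), and fewer oocytes holding a transcript and less of it per oocyte cannot be told apart in such a pool.

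Histone chaperones escort histones that are not yet, or no longer, part of a nucleosome. Newly made H3-H4 dimers are held in a soluble store by NASP and passed through ASF1 either to CAF-1, whose large subunit is encoded by Chaf1a and which acts at replication forks, or to HIRA, which places the replacement variant of H3 outside replication. The NAP1 family handles H2A-H2B, and nucleoplasmin 2, the product of Npm2, is the oocyte's abundant store protein, known for its part in remodeling sperm chromatin and in the organization of nucleoli and heterochromatin. TLK1 and TLK2 are nuclear serine/threonine kinases that phosphorylate ASF1 and promote histone supply in S phase, and the DNA damage checkpoint is known to lower their activity by phosphorylation, a step that RNA levels do not report. Growing oocytes do not replicate their DNA, and their chaperones are known as part of the maternal store used by the early embryo.

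Where several transcripts of a gene are listed, the results below turn on which exons a read covers. Sequences that separate pairs of known RefSeq transcripts are shown first, all read 5′ to 3′ from GENCODE release M21 on GRCm38. They are not unique to these transcripts. Tlk2 NM_001112705.2 also holds both exons below, and NM_001294329.1 the second. Nap1l4 NM_001285490.1 also skips exon 15, and Nasp NM_001284229.1 also lacks the 975-base exon. Exons of the computed models (XM_) were not read, nor those of known transcripts without a match in that release, such as Tlk2 NM_001361996.1. For Tlk2, on the plus strand of chromosome 11, 2 RefSeq transcripts that took turns between libraries differ by coding exons of 96 bases each, besides differences outside the coding sequence. Exon 6 of NM_001294334.1 (chr11:105210545-105210640) and its exon 8 (chr11:105240361-105240456) are both absent from NM_001294330.1. Capitals mark the exon and lower case the last and first 10 bases of its neighbors.
Tlk2 NM_001294334.1 exon 6: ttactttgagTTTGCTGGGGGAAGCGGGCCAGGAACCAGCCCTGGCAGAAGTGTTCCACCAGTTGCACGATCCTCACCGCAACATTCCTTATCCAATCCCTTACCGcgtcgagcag
Tlk2 NM_001294334.1 exon 8: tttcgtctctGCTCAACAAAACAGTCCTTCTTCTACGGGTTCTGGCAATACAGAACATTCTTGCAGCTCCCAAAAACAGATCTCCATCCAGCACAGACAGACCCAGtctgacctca

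For Nasp, on the minus strand of chromosome 4, the long transcript NM_016777.3 holds a coding exon of 975 bases (exon 7, chr4:116610403-116611377) that NM_001081475.1 lacks, which gives coding lengths of 2319 and 1344 bases without the stop codon. The junctions below share their left 30 bases in lower case, and the capitals are the first 30 bases of the exon that follows.
Nasp NM_016777.3 junction of exons 6 and 7: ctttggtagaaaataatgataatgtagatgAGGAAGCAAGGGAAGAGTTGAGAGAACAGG
Nasp NM_001081475.1 junction of exons 5 and 6: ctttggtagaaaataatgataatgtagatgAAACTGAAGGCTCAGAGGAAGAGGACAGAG

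For Nap1l4, on the minus strand of chromosome 7, the main transcript NM_008672.3 has a 36-base exon 15 (chr7:143518850-143518885), into which only 3 coding bases reach before the stop codon. NM_001285489.1 skips it and goes straight on to the last exon, so that its coding sequence is 1158 bases long against 1125. Capitals again mark the exon after the junction.
Nap1l4 NM_008672.3 junction of exons 14 and 15: gatgttaaccccaagGTGTAATTTTTGTGT
Nap1l4 NM_001285489.1 junction of exons 14 and 15: gatgttaaccccaagAAAGAACCCAGCCAG

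The measurements are the authors' estimated counts and TPM per RefSeq transcript, TPM being scaled for transcript length and to 1 total per library, and both were summed here per gene. The estimated counts summed to between 33349466 and 37232818 per library. The 10 marker genes of the oocyte were all listed, and their summed TPM lay between 28107 and 30097. The 7 listed of 10 granulosa and cumulus cell markers summed to between 16.7 and 22.3 TPM. Of these 7, 4 had a mean above 1 TPM and 0 were at 0 TPM in all libraries. The defining genes Amh, Amhr2 and Foxl2 were not in the table. Of 4 blood and endothelium markers 1 was listed, at 3.85 to 5.79 TPM. Irradiated library 2 stood apart from the other 3. Over 12569 genes the log2 difference between the irradiated libraries had an SD of 0.532, against 0.373 between the control libraries. Of the 100 genes with the highest TPM, 93 were lower in irradiated library 2 than in the mean of the others. The median difference over all 100 was -0.65 on the log2 scale. Where this library moves a gene total named below by more than 1.5 times, the value without it is also given.

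The genes lie at the following places on GRCm38.p6, beside those given above. Npm2 is at chr14:70647296-70661802, Asf1b at chr8:83955694-83970195, Nap1l1 at chr10:111472882-111498150, Chaf1a at chr17:56040416-56068026, Tlk1 at chr2:70712407-70825816 and Hira at chr16:18876750-18970309. Whole genes span chr11:105167895-105283959 for Tlk2, chr4:116601052-116628676 for Nasp and chr7:143513579-143549882 for Nap1l4.

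The levels of the 10 genes spanned more than 4 orders of magnitude and kept nearly the same order in all libraries. By mean TPM, Npm2 was the gene of rank 41 in the oocyte, with 4004 and 3730 TPM in control and 3889 and 1765 TPM in irradiated oocytes. The H3-H4 chaperones Asf1b and Asf1a came next. Asf1b had 299 and 302 TPM in control and 308 and 478 TPM in irradiated oocytes. Asf1a had 257 and 267 TPM in control and 237 and 441 TPM in irradiated oocytes. The ranges of these paralogs overlapped, although Asf1b was the higher of the pair in 4 of 4 libraries, by a ratio of 1.08 to 1.30.
Nasp followed with 57.2 and 53.6 TPM in control and 54.4 and 41.7 TPM in irradiated oocytes. Nap1l4 had 44.1 and 47.1 TPM in control and 44.5 and 52.5 TPM in irradiated oocytes, so that Nasp and Nap1l4 overlapped and stood in this order in 3 of 4 libraries. Nap1l1, a second gene of the NAP1 family, had 23.8, 24.3, 24.1 and 26.0 TPM, here and below with both controls before both irradiated libraries, and Nap1l4 exceeded it in each of them by a ratio of 1.85 to 2.02. Chaf1a had 19.3, 19.3, 22.1 and 19.8 TPM.
The kinases were far below the chaperone that they act on. Tlk2 had 5.67 and 5.79 TPM in control and 5.33 and 6.58 TPM in irradiated oocytes, and Tlk1 had 2.39 and 2.54 TPM in control and 2.24 and 3.18 TPM in irradiated oocytes. Tlk2 exceeded Tlk1 by a ratio of 2.07 to 2.38, and Asf1a and Asf1b together exceeded both kinases together by 68.3 to 94.1 times, the largest ratio being that of irradiated library 2. Hira was close to the detection limit, with 0.15, 0.15, 0.10 and 0.21 TPM. These TPM values rest on only 12, 13, 11 and 20 estimated counts, where 3 counts is the floor used here, and they count the 4 listed Hira transcripts alone. Apart from the pairs Asf1b with Asf1a and Nasp with Nap1l4, neighbors in this order did not overlap in any library.

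**Figure D1:**
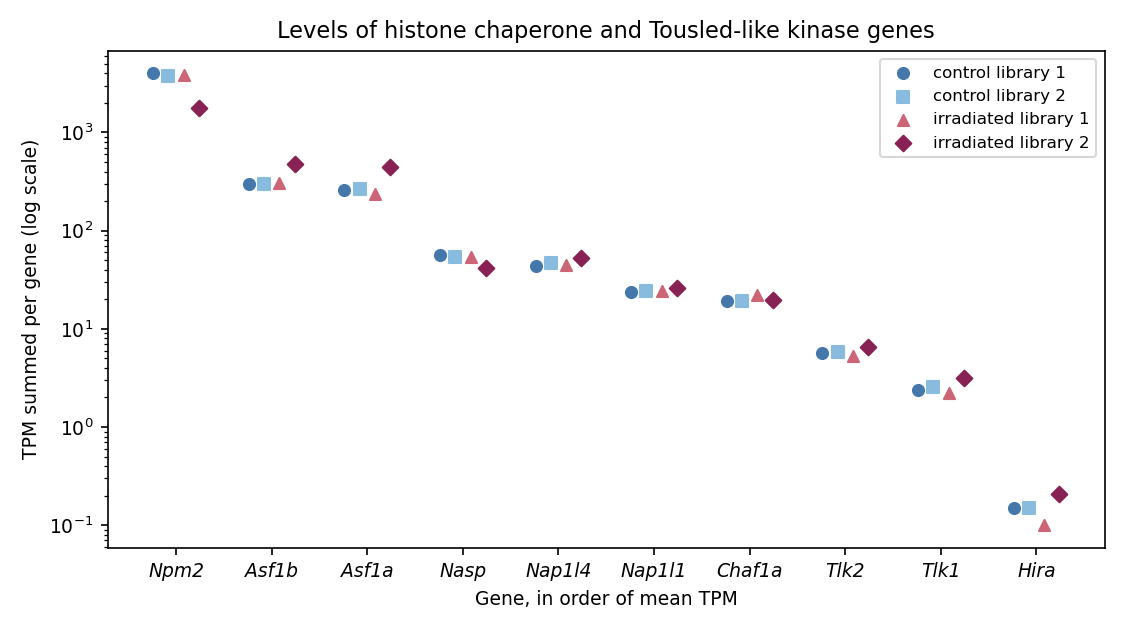
TPM summed per gene (log axis) for the 10 genes, with 1 point per library and the genes in order of mean TPM. Npm2 lies on top at 1765 to 4004 TPM, with its lowest point in irradiated library 2, and Hira lies at the bottom at 0.10 to 0.21 TPM.

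The comparison of irradiated with control oocytes addressed whether the RNA of the chaperones and kinases differed after genotoxic stress. A call required adjusted p below 0.05 together with an absolute log2 fold change over 2, the limits of the study's methods. Of the 10 gene totals, 0 were called by edgeR's quasi-likelihood test, and 0 by its exact test, DESeq2 or limma-voom. Over all 12569 genes tested, the quasi-likelihood test called 1 gene, 0.00796%. The exact test called 10 and limma-voom 0 of the same 12569, and DESeq2 called 4 of the 17374 genes that it fitted. With so few calls over all genes, 0 of 10 does not set these genes apart. At an unadjusted p under 0.05 the count was 0 of 10, against 5.92% of all genes tested, and the adjusted p of the 10 genes ran from 0.714 to 0.909 (quasi-likelihood test of edgeR, Benjamini-Hochberg adjusted). The log2 fold change was above 0 for 3 genes and below 0 for 7, with a median of -0.14 against 0.0102 for all genes tested. With 2 libraries per condition these intervals are wide, and the largest effect they allow differs by gene, as given below.

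The largest difference in mean was that of Npm2, and it lay in 1 library. It had 88992 and 74460 estimated counts in control and 80357 and 34173 in irradiated oocytes, so that irradiated library 1 fell between the control libraries and irradiated library 2 below all others. After TMM normalization the control mean was 85955 ± 7431 (SD, n = 2 libraries) and the irradiated mean 57442 ± 39619 (SD, n = 2), which gave a log2 fold change of -0.58 (95% interval -1.72 to 0.55, adjusted p = 0.735 by the quasi-likelihood test of edgeR). Leaving out irradiated library 2 gave a log2 fold change of -0.00767, and leaving out irradiated library 1 gave -1.56. Irradiated library 2 held 0.343 times the normalized count of the mean of the other 3, and 1.31% of genes differed at least as much between the irradiated libraries.
The genes whose 4 normalized counts were most like those of Npm2, by Euclidean distance on the log2 scale over 4 libraries, were the oocyte homeobox genes Obox1 (distance 0.364) and Obox5 (0.368), followed by Pramel29 (0.465). Obox1 had 90010 and 78029 counts in control and 79789 and 43768 counts in irradiated oocytes, the same division with irradiated library 2 alone at the bottom. Npm1, which encodes the ubiquitous nucleophosmin of the same family, had 623, 626, 529 and 381 TPM, and the ratio of Npm2 to Npm1 was 6.43, 5.95, 7.36 and 4.63.

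Nasp, which holds the soluble store of H3-H4, was also lowest in irradiated library 2. Its counts were 4087 and 3431 in control and 3614 and 2564 in irradiated oocytes, with a log2 fold change of -0.39 (95% interval -0.996 to 0.22, adjusted p = 0.714 by the quasi-likelihood test of edgeR). The control libraries and irradiated library 1 overlapped, and leaving out irradiated library 2 gave -0.0403.
The ASF1 genes were highest in that same library. Asf1a had 14135 and 13037 counts in control and 11994 and 20858 counts in irradiated oocytes, and Asf1b had 11536 and 10423 counts in control and 10985 and 15935 counts in irradiated oocytes. For both genes the irradiated libraries lay on either side of at least 1 control library. The log2 fold change was 0.10 for Asf1a (95% interval -0.43 to 0.63, adjusted p = 0.883, quasi-likelihood test of edgeR). For Asf1b it was 0.14 (95% interval -0.30 to 0.57, adjusted p = 0.816, same test). Without irradiated library 2 these values were -0.17 and 0.0158, so that the direction for Asf1a turned.

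Asf1a shares its locus with Mcm9, a helicase gene on the opposite strand of chromosome 10 whose span (53536315 to 53630439) encloses that of Asf1a (53596961 to 53609225), and whether the counting used strand is not given in the sources used here. The deposited counts of Asf1a were not whole numbers, by up to 0.34, although only 1 transcript of it is listed, and those of Mcm9 were not whole either. Their sums were whole to within 0.01, at 14799, 13589, 12528 and 21610 counts, so that some reads had been divided between the genes. Mcm9 took 664, 552, 534 and 752 of these counts, at most 4.48% of a sum. Other members overlap the annotated span of a neighbor: Tlk1 and Gorasp2, Chaf1a and Ubxn6, and Hira and Mrpl40 lie on opposite strands, Npm2 and Xpo7 on the same strand, Hira shares most of its span with Gm28539 on the same strand (18836584 to 18956247), and an antisense gene, 1700052K11Rik, lies opposite Tlk2. Without the strand setting, reads in these overlaps cannot be assigned with certainty. The totals of Tlk1, Chaf1a, Npm2 and Hira were whole numbers, unlike that of Asf1a. The coding parts of the paralogs Asf1a and Asf1b are identical at 71.4% of 604 aligned bases and share no exact run longer than 20 bases.

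The remaining chaperones differed less from control in the mean. Chaf1a had 1654 and 1464 counts in control and 1737 and 1454 counts in irradiated oocytes. After TMM normalization these became 1695, 1587, 1847 and 1252, so that irradiated library 2 was the lowest, at 0.732 times the mean of the other 3. The log2 fold change of Chaf1a was -0.0835 (95% interval -0.55 to 0.39). It was 0.17 without irradiated library 2 and also turned with library size alone and on the TPM scale. Nap1l1 had 1822 and 1638 counts in control and 1684 and 1724 counts in irradiated oocytes, and its log2 fold change was -0.15 (95% interval -0.50 to 0.20), which was -0.0238 without irradiated library 2 and turned on the TPM scale. Hira, with its 11 to 20 counts, had a log2 fold change of 0.15 with an interval of -0.85 to 1.15 (-0.17 without irradiated library 2), and a difference inside it was not detectable at this depth.
Nap1l4 had 2644 and 2523 counts in control and 2452 and 2680 counts in irradiated oocytes. After TMM normalization these became 2722 ± 17.4 (SD, n = 2 libraries) and 2458 ± 212 (SD, n = 2), with a log2 fold change of -0.15 (95% interval -0.48 to 0.18, adjusted p = 0.753 by the quasi-likelihood test of edgeR). Both irradiated libraries lay below both controls on this scale, and with library size alone or on the TPM scale the direction turned. Leaving out irradiated library 2 gave -0.0614.

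The totals of the kinases were slightly lower in irradiated oocytes on the TMM scale. Tlk2 had 478 and 418 counts in control and 398 and 462 counts in irradiated oocytes, which gave normalized counts of 471 ± 26.1 (SD, n = 2 libraries) and 411 ± 18.0 (SD, n = 2). The log2 fold change was -0.20 (95% interval -0.53 to 0.13, adjusted p = 0.714 by the quasi-likelihood test of edgeR), and it turned to 0.0417 on the log2(TPM + 1) scale. Tlk1 had 238 and 232 counts in control and 204 and 275 counts in irradiated oocytes, or 248 ± 5.31 and 227 ± 14.04 after normalization (SD, n = 2 each). Its log2 fold change was -0.13 (95% interval -0.50 to 0.25, adjusted p = 0.810 by the quasi-likelihood test of edgeR), and it turned to 0.0412 with library size alone and was -0.19 without irradiated library 2. For Tlk1, Tlk2 and Nap1l4 both irradiated libraries lay below both controls after TMM normalization, 3 of the 10 genes, where 19.9% of all genes tested did, and 0 of the 10 lay above both, where 22.1% of all genes did. The genes most like Tlk2 over the 4 libraries were 1700028K03Rik (distance 0.0799), Polr3b (0.101), which encodes a subunit of RNA polymerase III, and Lrrtm3 (0.116).

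**Figure D2:**
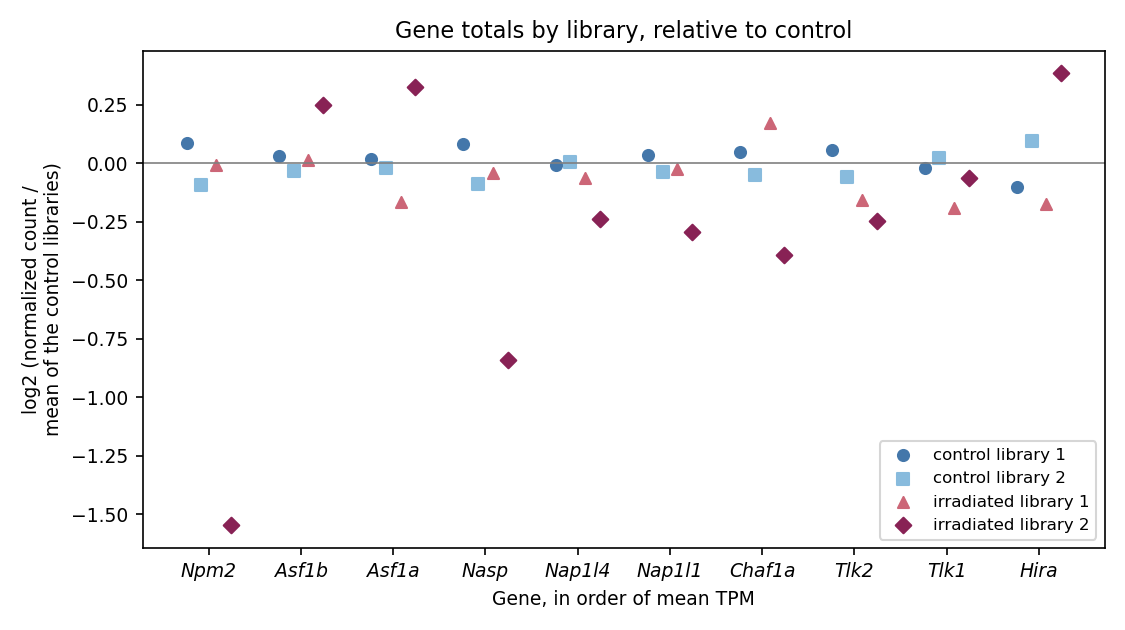
Normalized count of each gene total in each library, as the log2 ratio to the mean of the control libraries, for the 10 genes in order of mean TPM. The lowest points are those of Npm2 and Nasp in irradiated library 2, and irradiated library 1 stays near the control libraries for both.

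A further 26 histone chaperones and partners were examined as a wider list: the CAF-1 subunits Chaf1b and Rbbp4 with Rbbp7, the HIRA partners Ubn1, Ubn2 and Cabin1, Daxx and Atrx, Hjurp, the FACT subunits Ssrp1 and Supt16, Supt6, Dnajc9, Mcm2, Tonsl, Hat1, Ipo4, Anp32e, Cdan1, Spty2d1, Set, Npm1, Npm3, Nap1l2, Nap1l3 and Nap1l5. Of these 26 genes, 24 had enough counts to be tested and 0 were called, by DESeq2, limma-voom and edgeR's exact test also 0. Over all genes the quasi-likelihood test called 1, DESeq2 4, limma-voom 0 and the exact test 10. The log2 fold change was above 0 for 15 and below 0 for 9, with a median of 0.0314 against 0.0102 for all genes tested. An unadjusted p under 0.05 was reached by 1 of the 24, where 5.92% of all genes tested reached it, so that the list did not exceed the background. This gene was Mcm2, a subunit of the replicative helicase that also binds H3-H4. It had 8.48 and 8.67 TPM in control and 11.7 and 14.9 TPM in irradiated oocytes, with both irradiated libraries above both controls, and a log2 fold change of 0.40 with an adjusted p of 0.708 (quasi-likelihood test of edgeR).
The most abundant gene of the wider list was Rbbp7, a histone-binding subunit shared by several chromatin complexes, at 2129, 2006, 2203 and 2135 TPM. Its normalized count in irradiated library 2 was 0.754 times the mean of the other 3, and its log2 fold change of -0.14 was 0.0673 without that library. Npm1 came next, with a log2 fold change of -0.63 and an unadjusted p of 0.0731, and its lowest value in irradiated library 2, without which the log2 fold change was -0.26. Hat1, which acetylates new H4, had 301, 308, 287 and 356 TPM, the highest in irradiated library 2, whereas after TMM normalization both irradiated libraries lay below both controls with a log2 fold change of -0.15, so that its direction turned with the scale.

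**Figure D3:**
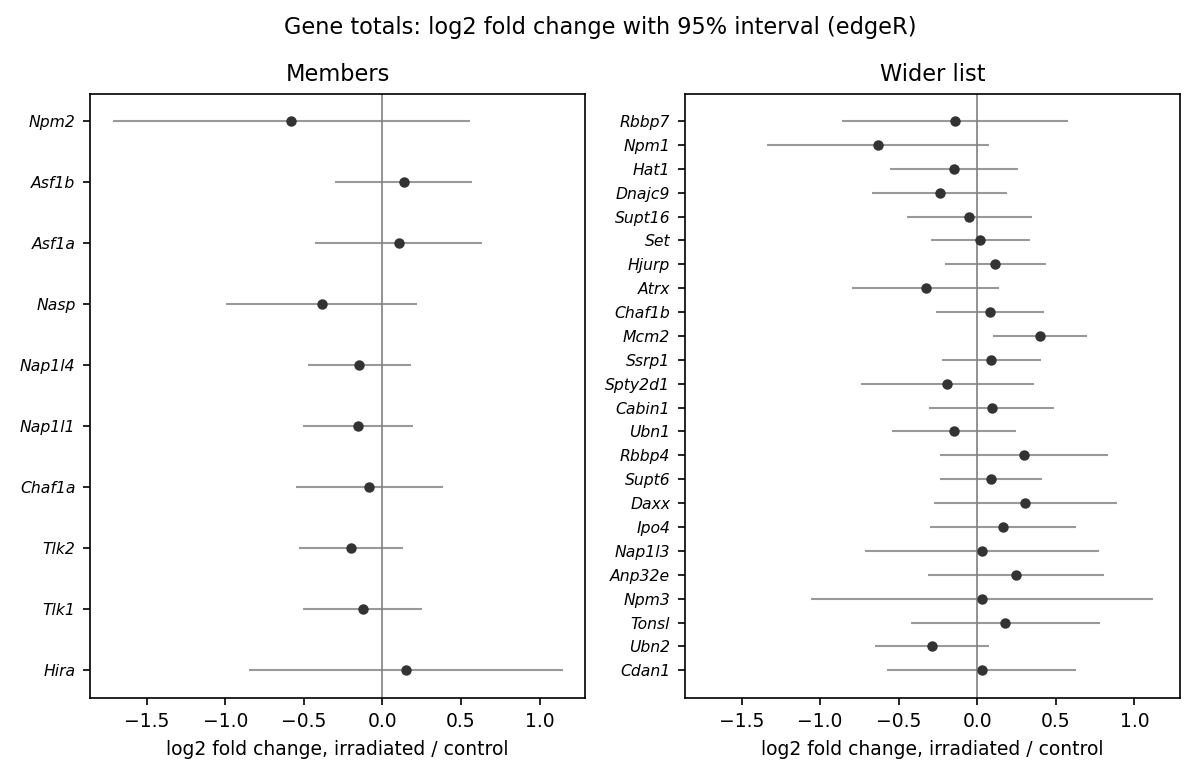
Log2 fold change of the gene total, irradiated over control, with its 95% interval from edgeR's quasi-likelihood fit, for the 10 genes (left) and for the 24 tested genes of the wider list (right). All intervals of the 10 genes include 0, and 1 of the 24 in the wider list, that of Mcm2, does not.

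Below the level of gene totals, the reads of the 10 genes were divided among 50 listed transcripts, of which 20 are known RefSeq transcripts (NM_) and 30 are computed models (XM_). More than 3 counts were present in all 4 libraries for 21 of them and in 1 library only for 12. Of the 31 tested, 0 passed both limits by the quasi-likelihood test of edgeR, as did 0 of the 26645 transcripts tested in all (0%). At an unadjusted p under 0.05 there were 7, with 5 from Nap1l4 and 2 from Tlk2, against 4.9% of all transcripts tested. Transcripts of 1 gene share its reads, so these 7 are not separate observations. Among them, Nap1l4 XM_030242205.1, XM_006508505.4 and XM_030242202.1 and Tlk2 XM_030246002.1 had 0 counts in both controls. They passed the count filter through the irradiated libraries alone, so their p-values are no independent support for a difference. The count depended on the test: DESeq2 called 3 of the 7, where it called 0.862% of all transcripts, and the exact test of edgeR called 3, where it called 1.12%. XM_030242205.1 and XM_030246002.1 are among the calls of both tests.

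Nap1l4 was the gene whose transcripts divided alike in the replicates and differently between conditions. The main transcript, NM_008672.3, had 1801 and 1722 counts in control and 1866 and 2061 counts in irradiated oocytes, which were 68.1% and 68.3% of the Nap1l4 reads in control and 76.1% and 76.9% in irradiated oocytes. NM_001285489.1, which skips the 36-base exon shown above, had 442 and 383 counts in control and 202 and 320 counts in irradiated oocytes, or 16.7%, 15.2%, 8.25% and 11.9% of the reads. The share of the first transcript was thus higher, and that of the second lower, in both irradiated libraries than in both controls.
Among the Nap1l4 transcripts above 3 counts in every library, the predicted XM_006508506.3 had the largest fold difference. It had 227 and 264 counts in control and 59 and 67 counts in irradiated oocytes, or 8.58%, 10.5%, 2.39% and 2.49% of the reads. After normalization the control mean was 258 ± 38.3 (SD, n = 2 libraries) and the irradiated mean 60.2 ± 2.76 (SD, n = 2), 4.28-fold lower, with a log2 fold change of -2.09 (95% interval -2.78 to -1.40, unadjusted p = 0.00131, adjusted p = 0.777 by the quasi-likelihood test of edgeR). DESeq2 gave it an adjusted p of 0.00472 and the exact test of edgeR 0.00370, and over all alternatives, those with a library left out or a replicate block included, the adjusted p ran from 0.00370 to 0.9996. The direction and size held when any 1 library was left out, between -1.93 and -2.24.
NM_001285489.1 had a log2 fold change of -0.80 (unadjusted p = 0.0203, adjusted p = 0.777, quasi-likelihood test of edgeR), and NM_008672.3 had 0.0343. Of the transcripts with 0 counts in both controls, XM_030242205.1 had 66 and 35 counts in the irradiated libraries. In the mean of the irradiated libraries it was at least 15.9-fold higher against a floor of 3 counts per library. DESeq2 gave it an adjusted p of 0.0305 and the exact test 0.0235, the lowest of a range that reached 0.9996 over all alternatives, against 0.777 by the quasi-likelihood test of edgeR. XM_006508505.4 had 15 and 13 counts in irradiated oocytes, in the mean at least 4.24-fold higher. XM_030242202.1 had 11 and 13, in the mean at least 3.60-fold higher. Not all of the other Nap1l4 transcripts divided by condition: XM_030242200.1, for instance, which was chosen after its values were seen, had 14 and 0 counts in control and 85 and 0 counts in irradiated oocytes.

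Isoform usage, the test of whether the transcripts of a gene moved apart, gave Nap1l4 an unadjusted p of 0.0187 and an adjusted p of 0.468 (diffSpliceDGE of edgeR with Simes' method). This result came from XM_030242205.1 alone among the 11 tested Nap1l4 transcripts. That transcript had 0 counts in both controls, so the result is no independent support for a difference. Taken singly in diffSpliceDGE, neither NM_008672.3 nor NM_001285489.1 fell under the limit of 0.05, whereas XM_006508506.3 did. At an adjusted p under 0.05 diffSpliceDGE called 0 of the 6 genes with several tested transcripts, where 0.253% of 6323 genes were called. Limma's version of the test also called 0 of the 6, and 0 of all 6323. At an unadjusted p under 0.05 diffSpliceDGE held 1 of the 6, where 6.12% of all genes did. The adjusted p of Nap1l4 was 0.0880 with limma's version of the test (unadjusted p = 2.78e-05). This was the smallest adjusted p of all genes, but it was shared with another gene whose unadjusted p was no larger.
The distance between libraries, the percent of a gene's reads that would have to change transcript to make their shares equal, gives the same values as a description. For Nap1l4 it was 3.64% between the controls, 6.47% between the irradiated libraries and 11.5% to 16.5% between conditions. All 4 distances between conditions exceeded both distances between replicates, as they did in 7.95% of 5865 genes, and the mean of the former exceeded the mean of the latter by 9.11 percentage points, as much as or more than which was seen in 4.23% of genes.

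The Tousled-like kinases behaved in the opposite way, and their transcripts divided as differently between replicates as between conditions. For Tlk2 the distance was 55.3% between the controls, 64.4% between the irradiated libraries and 48.5% to 75.2% between conditions. For Tlk1 it was 58.0% and 58.4% between replicates and 30.3% to 47.1% between conditions, so that every library was nearer to those of the other condition than to its own replicate. Mean replicate distances this large were seen in 1.19% of genes for Tlk2 and in 1.36% for Tlk1.
The transcripts of Tlk2 that differ by the exons shown above came and went between libraries. NM_001294334.1, with both exons, had 75 and 0 counts in control and 65 and 0 counts in irradiated oocytes, whereas NM_001294330.1, without them, had 0 and 72 counts in control and 0 and 97 counts in irradiated oocytes. Each was thus present in the libraries of 1 replicate number and at 0 in the others, irrespective of condition. XM_017314551.2 had 0 and 47 counts in control and 127 and 0 counts in irradiated oocytes, XM_030246000.1 had 57 counts in control library 2 alone, and XM_006533316.4 had 126 counts in irradiated library 2 alone.
The most abundant Tlk2 transcript, XM_017314550.2, had 285 and 98 counts in control and 60 and 49 counts in irradiated oocytes. The control libraries themselves differed more than control library 2 did from the irradiated ones. Its log2 fold change was -1.89 (standard error 0.627, unadjusted p = 0.0426, adjusted p = 0.958 by the quasi-likelihood test of edgeR) and -0.99 without control library 1. XM_030246002.1 had 0 counts in both controls and 44 and 104 counts in the irradiated libraries. In the mean of the irradiated libraries it was at least 22.0-fold higher against a floor of 3 counts. It had an unadjusted p of 0.00520 and an adjusted p of 0.777 by the quasi-likelihood test of edgeR. DESeq2 gave it an adjusted p of 0.00460 and the exact test of edgeR 0.00395, the lowest of a range that reached 0.9996 over all alternatives. XM_006533315.4, which was present in every library, had 98, 131, 93 and 62 counts. Usage of Tlk2 transcripts had an adjusted p of 1.00 in diffSpliceDGE, and the gene total lay between 398 and 478 counts.
For Tlk1, NM_172664.3 had 83 and 102 counts in control and 41 and 110 counts in irradiated oocytes, and XM_006499193.1 had 7 and 91 counts in control and 102 and 28 counts in irradiated oocytes. XM_017317580.2 had 76, 0, 60 and 29 counts, and XM_017317581.1 had 71, 9, 0 and 57. No transcript of Tlk1 separated the conditions. The coding parts of Tlk1 NM_172664.3 and Tlk2 NM_001294334.1 are identical at 73.0% of 1904 aligned bases. Their longest exact shared run is 17 bases. This Tlk2 transcript lacks 279 coding bases that NM_001112705.2 holds, so the values cover these 2 transcripts only.

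**Figure D4:**
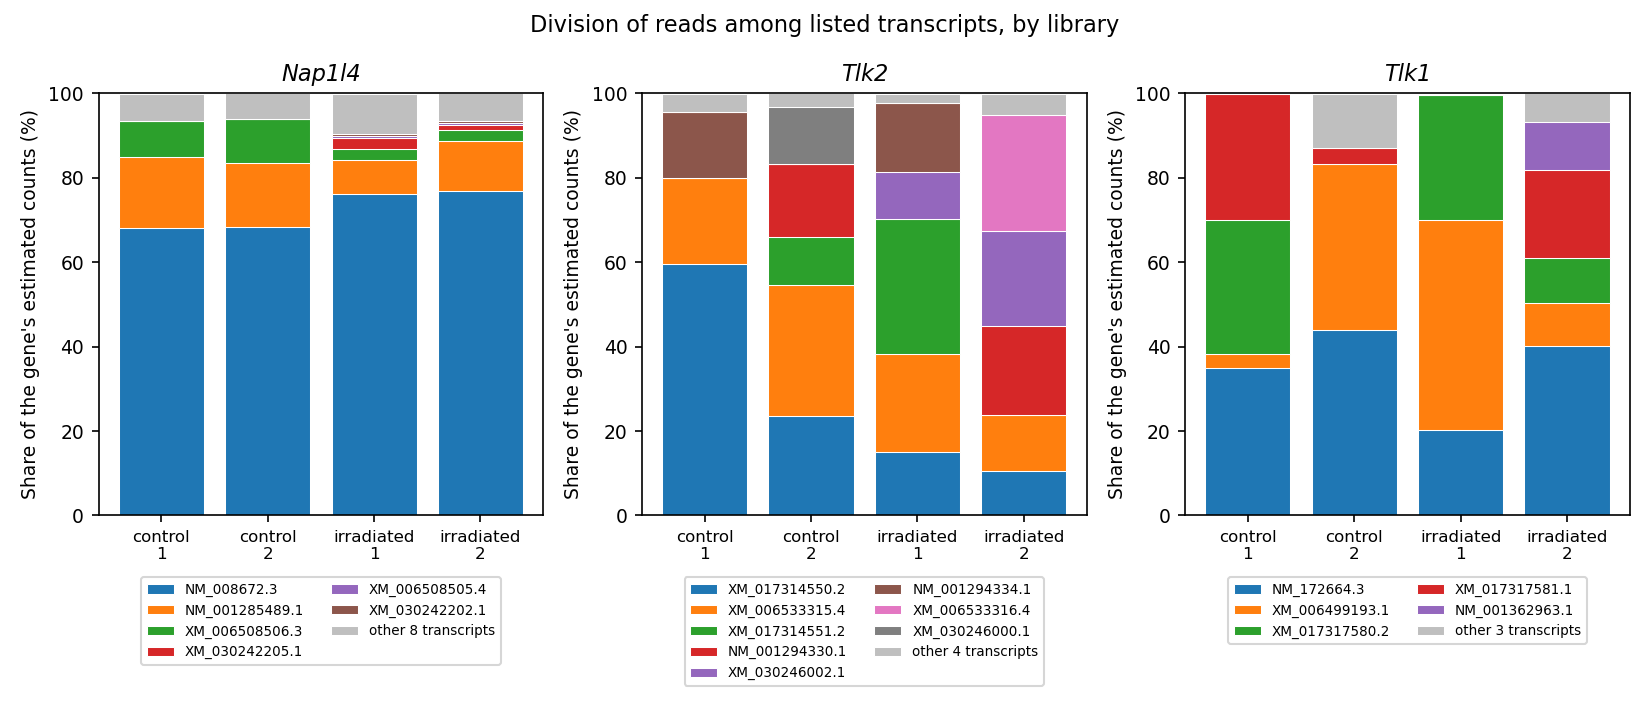
Share of the estimated counts of Nap1l4, Tlk2 and Tlk1 (percent, bars sum to 100) on each named transcript in each of the 4 libraries, with the remaining transcripts in gray. For Nap1l4 the bars of replicates look alike, with NM_008672.3 at 68.1% and 68.3% in control and 76.1% and 76.9% in irradiated oocytes, whereas for Tlk2 and Tlk1 each library has its own composition.

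Nasp, Nap1l1 and Npm2 kept nearly the same division in all libraries. The long Nasp transcript NM_016777.3, which holds the 975-base exon, had 77.9% and 79.3% of the Nasp reads in control and 79.96% and 78.0% in irradiated oocytes. NM_001081475.1, without it, had 22.0%, 20.7%, 20.04% and 22.0%. Irradiated library 2, where the normalized total was 0.564 times the mean of the other 3, lay inside the range of the others in both shares, and per length the long form exceeded the short one by a TPM ratio of 2.36 to 2.66. For Nap1l1, NM_015781.5 had 70.0%, 72.7%, 71.8% and 67.0% of the reads and XM_030245178.1 had 29.1%, 26.4%, 27.5% and 31.5%. For Npm2, NM_181345.3 held 99.2% to 99.5% of the reads. Asf1a, Asf1b and Chaf1a have 1 listed transcript each. The few Hira reads were divided differently in each library, on NM_010435.2 (0, 8, 11 and 9 counts) and 3 predicted transcripts with 11 counts or fewer in any library.

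**Figure D5:**
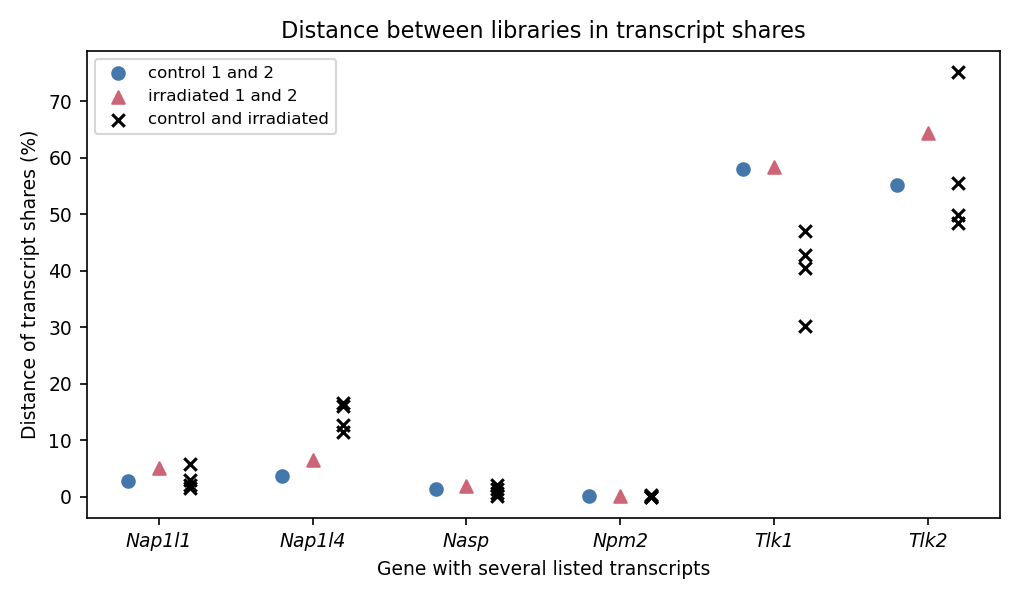
Distance between 2 libraries in transcript shares (percent of reads on other transcripts) for the 6 genes with several tested transcripts, with points for the control pair, the irradiated pair and the 4 pairs across conditions. Nap1l4 is the gene whose crosses (11.5% to 16.5%) all lie above both replicate points, and Tlk1 is the gene whose crosses all lie below them.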

How the data were processed

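Each of the 4 libraries was sequenced from pooled oocytes in independent experimental replicates, according to the study's methods. The authors aligned the reads to GRCm38 (mm10) with Bowtie2, and the submitters' processing notes also name HISAT2 and RSEM. The authors deposited an estimated count per RefSeq transcript, not scaled for library size, and a TPM value. The authors also deposited 10 columns of FPKM, scaled for length and depth, and of averages, which were not used. Estimated counts had been shared out among transcripts, so transcript counts carry the error of that division too, and floors cover counting error only. The 95% intervals of fold changes come from the edgeR fit and include the spread between libraries.

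Counts were summed per gene, rounded and compared by the quasi-likelihood test of edgeR 4.0.16 (R 4.3.3, without a block) after filterByExpr at a minimum count of 10 and TMM scaling, whose factors for gene totals were 0.923, 0.975, 0.937 and 1.19. P-values were Benjamini-Hochberg adjusted over the whole table, and calls required adjusted p below 0.05 together with an absolute log2 fold change over 2. Isoform usage was tested with diffSpliceDGE. DESeq2 1.42.0 and limma 3.58.1 (voom, diffSplice, and limma-trend on log2(TPM + 1)) served as alternatives. Share distances needed 100 counts per gene and carry no test. Fitted fold changes of transcripts at the floor of 3 counts in both libraries of a condition are given as bounds. These bounds divide the mean normalized count of the other condition by the floor, so its lower library alone would give less. The tests were checked on simulated data. Of the 20 NM_ transcripts, 16 matched a transcript of GENCODE M21, from which sequences were read. Coordinates of genes are those of GRCm38.p6.

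The members and lists were chosen with earlier results of these data known. Named transcripts were the most abundant of each gene, those with at least 10% of its reads in any library, and those with an unadjusted p under 0.05 or an adjusted p under 0.05 in DESeq2. From the wider list, genes with an unadjusted p under 0.05 and the 3 with the highest TPM were named. The 3 nearest genes were given for Npm2 and Tlk2.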

Additional observations from a re-analysis of the deposited data

How the results depend on the processing

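With 2 libraries per condition, no gene total of the 10 was called under any of the settings, and the directions of small differences depended on scaling. The median log2 fold change of all genes was 0.0102 with TMM factors, 0.172 with library size alone, 0.145 on log2(TPM + 1), 0.214 on log2(TPM + 0.1) and 0.0793 on log2(TPM + 1) without a filter. Against these shifts, gene totals that turned to positive values were Nap1l4 (0.00312 with library size alone, then 0.0832, 0.0847 and 0.0832 on the TPM scales in that order), Tlk1 (0.0412, then 0.0872, 0.112 and 0.0872), Chaf1a (0.0470, then 0.110, 0.115 and 0.110), Tlk2 (0.0417, 0.0470 and 0.0417 on the TPM scales) and Nap1l1 (0.0538, 0.0558 and 0.0538), and Hira turned to -0.00579 on log2(TPM + 0.1). The transcripts Chaf1a NM_013733.3 and Nap1l1 XM_030245178.1 turned with library size alone, to 0.0476 and 0.0877.

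DESeq2 and the exact test of edgeR called 3 transcripts each, and every other setting called 0. The cause was not tested. The median distance of transcript shares between conditions was 8.62% over the 6 genes with at least 100 counts in every library. It was 14.2% when only 10 counts were required, a limit that also admits Hira with its 11 to 20 counts. Over NM_ transcripts alone, a setting that leaves fewer genes or transcripts, it was 1.04%. The number of the 10 genes among the highest 10% by level was 3 by TPM and 5 by normalized counts, which are not scaled for length.

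Leaving out each library in turn gave log2 fold changes of -1.56 to -0.00767 for Npm2, -0.85 to -0.0403 for Nasp, -0.17 to 0.32 for Asf1a, -0.40 to 0.17 for Chaf1a, -0.31 to -0.0238 for Nap1l1, -0.25 to -0.0614 for Nap1l4 and -0.17 to 0.37 for Hira. For transcripts it gave -0.16 to 0.35 for Asf1a NM_025541.3, -0.37 to 0.18 for Chaf1a NM_013733.3, -0.15 to 0.0482 for Nap1l1 XM_030245178.1, -0.0436 to 0.10 for Nap1l4 NM_008672.3 and -1.11 to 3.20 for Tlk1 XM_006499193.1. Without irradiated library 1, where library 2 alone stands for irradiation and is assumed to vary like the controls, the adjusted p was 1.35e-30 for Npm2, 9.47e-17 for Nasp, 0.000430 for Chaf1a, 0.00739 for Asf1a, 0.00805 for Nap1l1 and 0.0277 for Nap1l4 (quasi-likelihood test of edgeR), none past the limit on the fold change, in a fit where 5395 of 13011 genes had an unadjusted p under 0.05.

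The replicate numbers pair no samples by the labels, and deviations of same-numbered libraries correlated at 0.0592 over 12569 genes. With the replicate number as a block, 0 of the 10 gene totals, 0 of their transcripts and 0 of their usage tests were called, and the block moved the calls over all gene totals from 1 to 7.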
